A study of Sus scrofa with 9 samples.

Results

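The 10 genes described here encode parts of the extracellular matrix, the enzymes that act on it and the receptors that bind it: the collagen chains COL1A1, COL11A1, COL12A1 and COL27A1, the laminin chain LAMA5, the matricellular protein SPARC, the protease inhibitor TIMP2, the protease MMP16 and the integrin chains ITGA8 and ITGA11. They were taken by gene symbol from a deposited table of 1081 rows, in which each symbol had 1 row. All 10 passed the filter on low values (at least 1 FPKM in at least 3 libraries), as did 919 rows of the table. FPKM are fragments per kilobase of transcript and are scaled to the size of the library.

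The extracellular matrix is the mesh of secreted proteins that surrounds cells and anchors them. Fibrillar collagens give it tensile strength, laminins form the sheet-like basement membrane, and integrins, each a pair of an alpha and a beta chain, tie the mesh to the cytoskeleton. In the ovary granulosa cells rest on the follicular basal lamina, whose make-up changes as the follicle grows and is remodelled at ovulation.

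Messenger RNA was sequenced from primary granulosa cells of pig ovary, labelled as wild type. The cells had been treated with sulforaphane (SFN, a plant isothiocyanate known as an activator of NRF2), with follicle-stimulating hormone (FSH, which signals through cyclic AMP in these cells) or kept as control, with 3 libraries in each of the 3 groups. No label used here gives a dose or a duration, or says whether the libraries stem from different animals or cultures, and p-values therefore measure the spread between these libraries only, which may be technical.

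The recovered depth was between 16574437 and 22292705 fragments per library, of which the deposited rows held between 6.72% and 8.38%. The table left out genes with small differences from control: its absolute log2 fold changes had a 1st percentile of 0.39 for SFN against control and 0.37 for FSH against control. Of the 919 tested genes 99.6% passed the test for SFN against control and 97.9% for FSH against control (edgeR's quasi-likelihood test, Benjamini-Hochberg adjusted p under 0.05). That each of the 10 matrix genes passed both of these tests is therefore no more than nearly every row of the table did. The groups also failed to overlap in FPKM for 96.0% of tested genes in the first comparison and for 98.7% in the second, so absence of overlap with control is equally common in the table. The 2 comparisons share the same control libraries. For SFN against FSH 55.7% of tested genes passed and 59.4% had groups without overlap, and small differences were present.

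COL1A1, the main chain of type I collagen, the most abundant fibrillar collagen of connective tissue (Sscrofa11.1 chromosome 12, 26379087 to 26397180), had 34.8, 29.7 and 30.7 FPKM with SFN, 46.3, 46.5 and 48.2 FPKM with FSH, and 68.5, 70.2 and 75.4 FPKM in control cells. The 3 groups were fully separated, with SFN lowest and control highest. Relative to control the log2 fold change was -1.17 ± 0.0821 (SE) with SFN and -0.60 ± 0.0812 with FSH, with adjusted p = 1.53e-07 and 3.56e-05 (edgeR quasi-likelihood test, Benjamini-Hochberg).

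COL12A1, a chain of type XII collagen, which coats the surface of type I fibrils (chromosome 1, 90744409 to 90875127), was the collagen of the set on which the treatments moved in opposite directions. It had 40.1, 36.9 and 48.8 FPKM with SFN, 141, 134 and 140.3 FPKM with FSH, and 97.0, 96.3 and 107 FPKM in control cells. All SFN libraries lay below and all FSH libraries above every control library. It fell 2.31-fold with SFN (log2 fold change -1.21 ± 0.106, SE) and rose 1.41-fold with FSH (0.49 ± 0.105), with adjusted p = 7.86e-07 and 0.000953 in edgeR's quasi-likelihood test.

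COL11A1, a chain of type XI collagen, which helps start fibrils and sets their diameter (chromosome 4, 115638381 to 115841679), had 13.7, 12.2 and 18.4 FPKM with SFN, 16.7, 16.7 and 16.6 FPKM with FSH, and 38.9, 42.1 and 44.6 FPKM in control cells. Both treated groups stood well under the control group and overlapped each other. The fall was 2.84-fold with SFN and 2.52-fold with FSH (log2 fold changes -1.50 ± 0.129 and -1.33 ± 0.129, SE), the largest fall of the 10 genes in either comparison with control. COL27A1, a fibrillar collagen known mainly from cartilage (chromosome 1, 254768576 to 254924893), had 1.48, 1.25 and 1.03 FPKM with SFN, 1.28, 1.23 and 1.36 FPKM with FSH, and 2.30, 2.31 and 2.68 FPKM in control cells, with log2 fold changes against control of -0.99 ± 0.138 and -0.90 ± 0.137 (SE). It shared with COL11A1 the order of groups: both treatments below control, and no separation between the treatments.

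**Figure D1:**
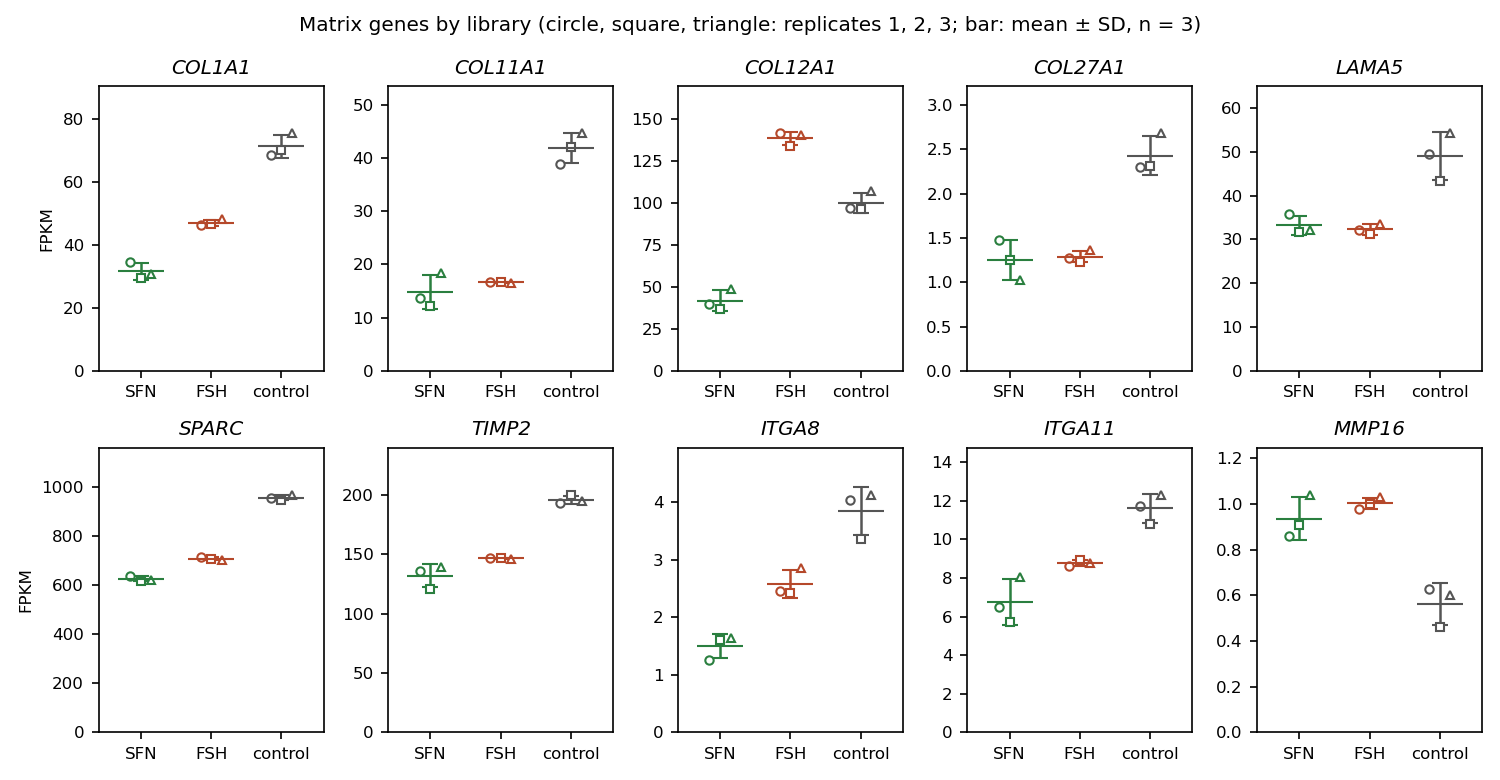
FPKM (vertical axes, from 0) of each of the 10 genes in every library with SFN, with FSH and in control cells. Markers are single libraries and bars are the mean ± SD of 3; COL12A1 is above control with FSH only, and MMP16 is above control in both treated groups.

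Because the 4 collagens are read in the same library, their proportions do not depend on how libraries are scaled against each other. Their summed level was 90.0, 80.0 and 98.9 FPKM with SFN, 206, 198 and 206 FPKM with FSH, and 207, 211 and 230 FPKM in control cells. In these sums, which do depend on how libraries are scaled, the SFN libraries held less of all 4 together than any other library. FSH replicates 1 and 3 came close to the lowest control library. The share of COL12A1 in that sum was 46.6% ± 2.46 with SFN, 68.1% ± 0.646 with FSH and 46.4% ± 0.658 in control cells (SD, n = 3 each).

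The FPKM ratio of COL12A1 to COL1A1 within a library was 1.15, 1.24 and 1.59 with SFN, 3.06, 2.88 and 2.91 with FSH, and 1.42, 1.37 and 1.42 in control cells. The FSH libraries lay above all others, and the SFN libraries spanned the control values. The ratio of COL11A1 to COL1A1 was 0.354 ± 0.00934 with FSH and 0.586 ± 0.0162 in control cells (SD, n = 3 each), without overlap. SFN replicate 3, at 0.598, stood apart from SFN replicates 1 and 2 at 0.394 and 0.412 in this ratio. With 3 libraries against 3 no exact permutation test can go below p = 0.1, so these ratios, chosen after their values were seen, are given as a description.

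**Figure D2:**
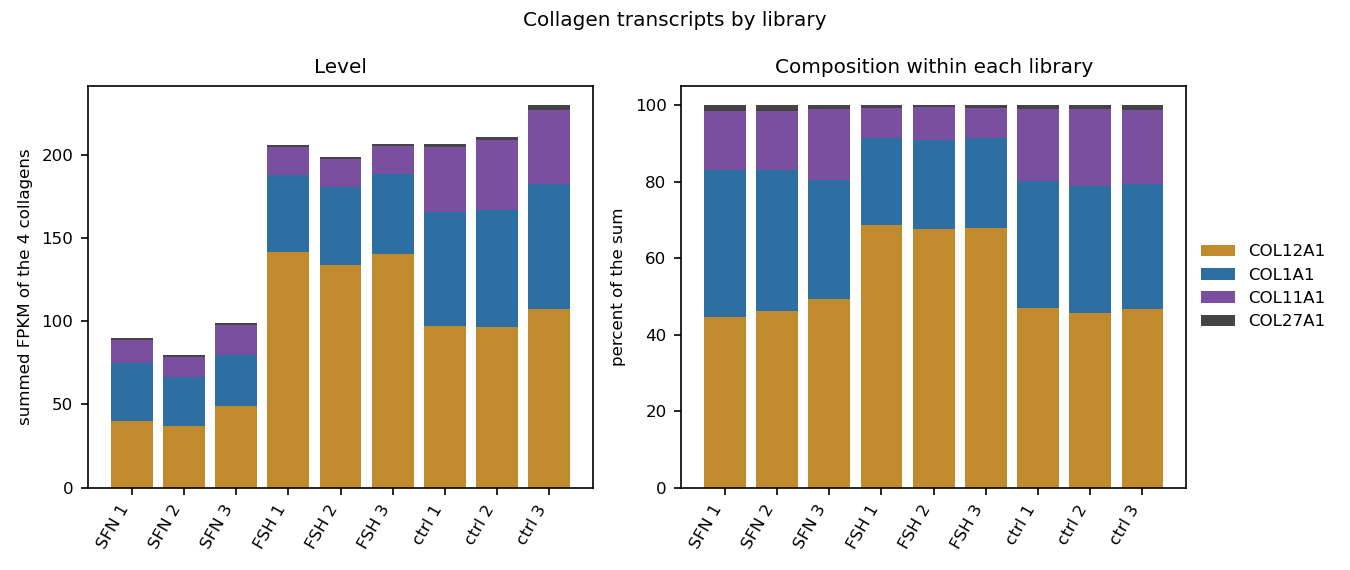
Left, summed FPKM of COL12A1, COL1A1, COL11A1 and COL27A1 in each library; right, the percent of that sum held by each. SFN libraries had the lowest sums (80.0 to 98.9 FPKM) with shares of COL12A1 near those of control, and FSH libraries had sums of 198 to 206 FPKM with 68.1% of COL12A1 on average.

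LAMA5, the laminin alpha 5 chain of basement membranes (chromosome 17, 61698370 to 61747795), had 35.8, 31.7 and 32.2 FPKM with SFN, 32.2, 31.1 and 33.6 FPKM with FSH, and 49.5, 43.3 and 54.2 FPKM in control cells. The treated groups overlapped each other and lay below every control library. The falls relative to control were 1.47-fold with SFN and 1.52-fold with FSH. In the first of these the call ended with TMM factors (log2 fold change -0.08 in place of -0.56, adjusted p = 0.519, edgeR) and with median-ratio factors (-0.19, adjusted p = 0.0933).

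SPARC, a secreted protein that binds collagen and modulates the contact of cells with matrix (chromosome 16, 71368164 to 71380972), was the most abundant of the 10 transcripts. It had 639, 619 and 621 FPKM with SFN, 714, 706 and 703 FPKM with FSH, and 956, 947 and 968 FPKM in control cells. The groups were separated and the libraries within each group close together, with a coefficient of variation of 1.72%, 0.815% and 1.14%. SPARC fell 1.53-fold with SFN and 1.35-fold with FSH against control. With TMM factors its log2 fold change with SFN was -0.13 in place of -0.61 (adjusted p = 0.143, edgeR) and the call ended. Relative to COL1A1 in the same library SPARC was higher in both treated groups, at 19.8 ± 1.30 with SFN, 15.1 ± 0.439 with FSH and 13.4 ± 0.562 in control cells (SD, n = 3 each).

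TIMP2, a tissue inhibitor that blocks matrix metalloproteinases (chromosome 12, 3254794 to 3300835), had 136, 121 and 139 FPKM with SFN, 146, 147 and 146 FPKM with FSH, and 193, 199.8 and 195 FPKM in control cells. MMP16, a membrane-anchored matrix metalloproteinase (chromosome 4, 48556826 to 48867959), ran the other way, with 0.860, 0.910 and 1.04 FPKM with SFN, 0.980, 1.0 and 1.03 FPKM with FSH, and 0.630, 0.460 and 0.600 FPKM in control cells. It was the only one of the 10 genes higher than control in both treated groups.

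The log2 fold changes of TIMP2 were -0.61 ± 0.0808 (SE) with SFN, where TMM factors ended the call at -0.14 (adjusted p = 0.105, edgeR), and -0.50 ± 0.0806 with FSH. Those of MMP16 were 0.73 ± 0.138 with SFN and 0.83 ± 0.137 with FSH, adjusted p = 0.000325 and 0.00017 (edgeR quasi-likelihood test). MMP16 was the weakest transcript of the set and rested on 186 to 224 counts per SFN library, 199 to 277 per FSH library and 116 to 140 per control library. It passed the filter through 3 treated libraries alone (SFN replicate 3 and FSH replicates 2 and 3), so that it had to differ from control to be tested. The FPKM ratio of TIMP2 to MMP16 within a library was 133 to 158 with SFN, 141 to 149 with FSH and 306 to 434 in control cells, without overlap between either treated group and control. Because TIMP2 was lower and MMP16 higher than control in both treated groups, this separation follows from their levels and is no further result.

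ITGA8 and ITGA11 encode integrin alpha chains that pair with the beta 1 chain. ITGA11 forms a receptor for fibrillar collagen, whereas ITGA8 forms a receptor for proteins that carry the RGD sequence, such as fibronectin and nephronectin, and is not classed as collagen-binding. ITGA8 (chromosome 10, 46132887 to 46303659) had 1.26, 1.61 and 1.64 FPKM with SFN, 2.46, 2.42 and 2.86 FPKM with FSH, and 4.04, 3.36 and 4.12 FPKM in control cells. ITGA11 (chromosome 1, 166186601 to 166311046) had 6.47, 5.71 and 8.04 FPKM with SFN, 8.63, 8.93 and 8.77 FPKM with FSH, and 11.7, 10.8 and 12.3 FPKM in control cells.

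Both chains followed the order of COL1A1, with the 3 groups separated, SFN lowest and control highest. The fall against control was 2.55-fold with SFN and 1.48-fold with FSH for ITGA8 (log2 fold changes -1.35 ± 0.135 and -0.57 ± 0.129, SE). For ITGA11 it was 1.71-fold and 1.32-fold (log2 fold changes -0.78 ± 0.118 and -0.40 ± 0.117, SE). The ratio of ITGA8 to COL1A1 overlapped among all groups, at 0.0480 ± 0.0102 with SFN, 0.0548 ± 0.00394 with FSH and 0.0538 ± 0.00561 in control cells (SD, n = 3 each). That of ITGA11 to COL1A1 was 0.214 ± 0.0420 with SFN, 0.187 ± 0.00497 with FSH and 0.162 ± 0.00859 in control cells. In this ratio the treated groups overlapped each other and lay above every control library.

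Counted together, 9 of the 10 genes fell and MMP16 rose with SFN relative to control, with a median log2 fold change of -0.88. Over all tested genes the median was -0.56, and 65.3% were lower and 34.3% higher. The balance of the table depended on scaling: with TMM factors, computed from the tested rows themselves, 317 genes were higher and 296 lower in place of 315 and 600, and the median moved by 0.47. With those factors 6 of the 10 matrix genes were called lower and MMP16 higher. With FSH relative to control 8 genes fell and COL12A1 and MMP16 rose, with a median of -0.53. The table had a median of 0.41 with 42.7% lower and 55.3% higher. The 10 genes were chosen with earlier results of these data known, so their difference from the table is a description. MMP16 passed the filter through treated libraries alone. These 8 lower and 2 higher calls were the same in number with TMM factors, median-ratio factors and column sums as library sizes.

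**Figure D3:**
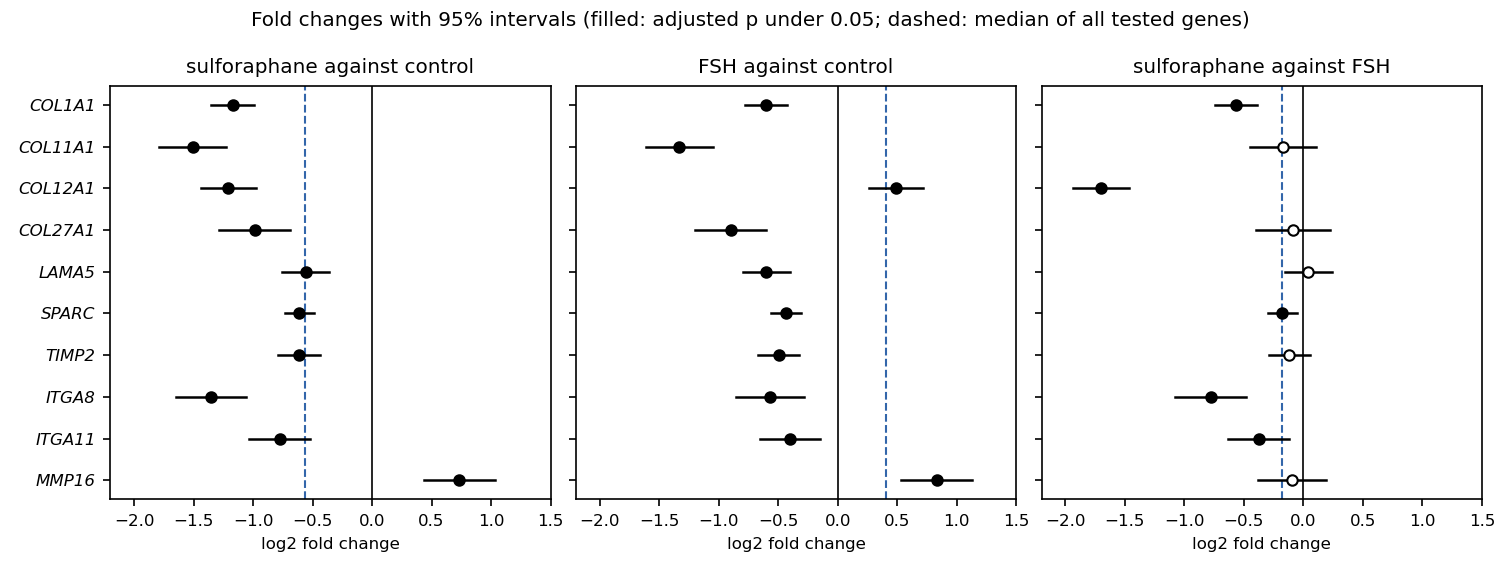
Log2 fold change (horizontal axes) with 95% interval for each gene in the 3 comparisons, from a fit of all 9 libraries; the dashed line is the median of the 919 tested genes. COL12A1 lies below 0 with SFN (-1.21) and above 0 with FSH (0.49) relative to control, and MMP16 lies above 0 in both.

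SFN against FSH asks where the treatments differed from each other, and the control libraries do not enter the difference. COL12A1 was 3.25-fold lower with SFN than with FSH (log2 fold change -1.70 ± 0.108, SE; adjusted p = 3.39e-08, edgeR quasi-likelihood test), which ranked 101 from the lowest of the 919 tested genes. ITGA8 was 1.72-fold lower (-0.78 ± 0.137, adjusted p = 0.00024) and COL1A1 1.48-fold lower (-0.57 ± 0.0815, adjusted p = 4.22e-05). For COL1A1 the call ended with median-ratio factors (-0.19, adjusted p = 0.0728), while it stayed below 0 in each scaling. COL12A1 and ITGA8 were called lower with SFN under all 4 scalings.

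ITGA11 (-0.38 ± 0.118) and SPARC (-0.18 ± 0.0564) passed, with adjusted p = 0.0154 and 0.0163 (edgeR). ITGA11 stayed below 0 in all 20 alternatives, but its call ended with each other scaling, and also without SFN replicate 1 (-0.35), SFN replicate 2 (-0.26) or FSH replicate 2 (-0.36). SPARC missed the threshold without FSH replicate 1 (-0.17) or FSH replicate 2 (-0.18) and was above 0 with TMM factors (0.12), median-ratio factors (0.20, adjusted p = 0.0334, edgeR) and column sums (0.016).

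LAMA5, COL11A1, COL27A1, TIMP2 and MMP16 did not pass in this comparison. The 95% intervals of their log2 differences, SFN minus FSH, were -0.16 to 0.24 for LAMA5, -0.45 to 0.11 for COL11A1, -0.40 to 0.22 for COL27A1, -0.29 to 0.06 for TIMP2 and -0.39 to 0.19 for MMP16. LAMA5 passed as higher with SFN in the 3 other scalings (0.23 to 0.42). Those scalings are computed from the deposited rows alone, which left out genes with small differences from control. In this comparison they moved the median of the whole table upward, by 0.19 (column sums) to 0.37 (median-ratio). Which scaling is nearer the true levels was not tested. COL11A1 passed as lower without SFN replicate 3 (-0.36, adjusted p = 0.000153, edgeR), as did TIMP2 (-0.18, adjusted p = 0.0234). Each was above 0 in the other scalings, where TIMP2 passed as higher with TMM factors (0.18) and median-ratio factors (0.25). In all, 5 of the 10 genes were called lower with SFN and 0 higher (median -0.17), beside 42.8% lower and 12.9% higher over the table (median -0.18). With another scaling the table had 320 genes higher and 327 lower (TMM), 388 and 315 (median-ratio) or 226 and 350 (column sums), in place of 119 and 393. DESeq2 and limma on log2(FPKM + 1) also called 5 of the 10 genes.

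**Figure D4:**
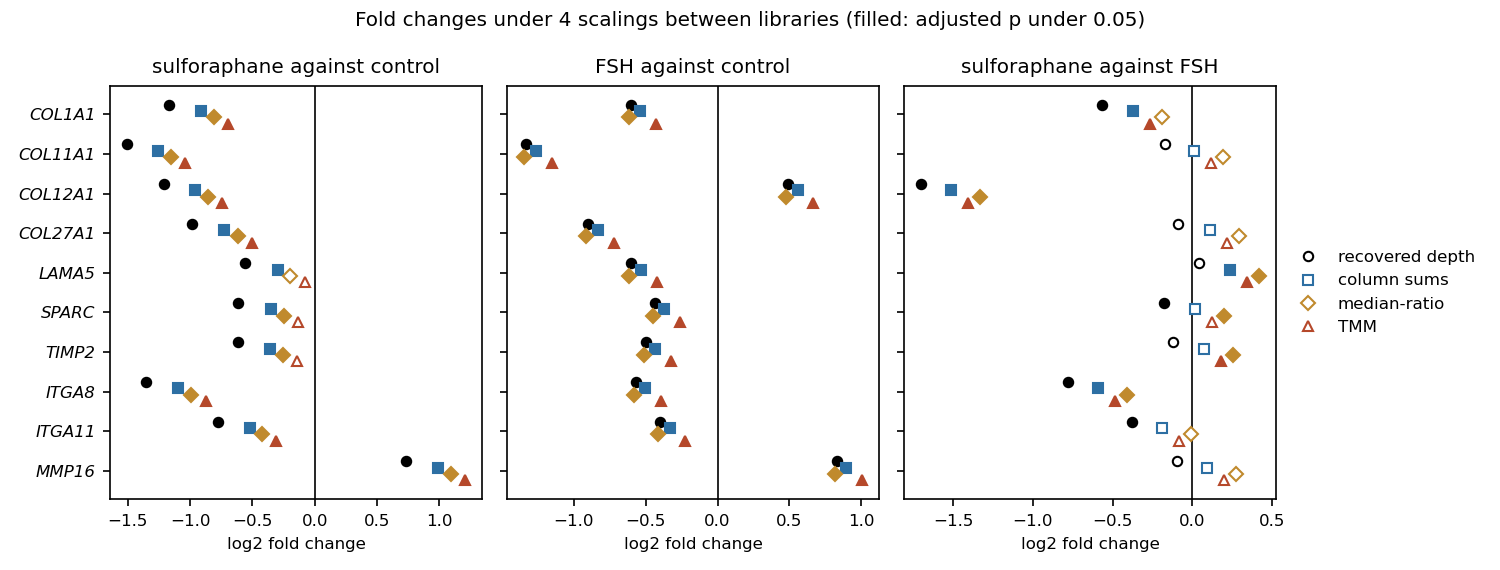
Log2 fold change of each gene (horizontal axes) under 4 ways of scaling libraries against each other; filled markers passed the edgeR test at an adjusted p under 0.05. COL12A1 and ITGA8 keep their direction and call in all 3 comparisons, whereas SPARC, TIMP2, COL11A1, COL27A1 and MMP16 cross 0 in SFN against FSH.

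The SFN libraries were the least alike: the coefficient of variation of the 10 genes had a median of 12.0% with SFN, 2.37% with FSH and 6.66% in control cells. SFN replicate 3 was the highest of its group for 6 genes, among them COL11A1, COL12A1 and ITGA11, and the lowest for COL27A1. Without it COL12A1 had a log2 fold change of -1.36 against control, and 10 of the 10 genes were still called in that comparison. That is no more than nearly every row did, as fits without 1 library called 892 to 915 genes over the table.

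FPKM and counts did not carry quite the same information for every gene. The apparent transcript length, which is the count divided by FPKM and by depth, was 1.84 to 1.85 kb for SPARC in every library. For COL12A1 it was 9.37 to 9.87 kb with SFN, 9.35 to 9.55 kb with FSH and 9.21 to 9.41 kb in control cells, and for TIMP2 1.32 to 1.40, 1.30 to 1.35 and 1.38 to 1.44 kb. The groups overlapped in this length for COL12A1, while the FSH and control groups of TIMP2 did not. For COL27A1 the length was 7.02 to 7.11 kb with SFN, 7.24 to 7.36 kb with FSH and 7.18 to 7.31 kb in control cells, with the SFN group below both others.

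Around these 10 genes, 251 further matrix genes were listed in 7 groups, with earlier results of these data known. Of these, 37 were rows of the table and 31 were tested. With SFN against control 24 fell and 7 rose (median log2 fold change -0.86), beside 65.3% lower and 34.3% higher over the table (median -0.56). Under TMM factors 16 fell and 7 rose, where the table had 296 lower and 317 higher. With FSH 12 fell and 19 rose (median 0.48), beside 42.7% lower and 55.3% higher over the table (median 0.41). Among collagens COL8A1, a short-chain network collagen, fell in both comparisons (-2.18 ± 0.165 with SFN and -1.31 ± 0.156 with FSH, SE), and COL14A1, which like COL12A1 binds the surface of fibrils, fell with SFN (-0.63 ± 0.0819) and rose with FSH (0.44 ± 0.0811). The fall of COL14A1 did not pass with TMM factors (-0.16).

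In the basement membrane group NID2, which links laminin to type IV collagen, had 4.87 ± 0.767 FPKM with SFN, 22.1 ± 0.527 FPKM with FSH and 15.1 ± 1.31 FPKM in control cells (SD, n = 3 each), the same order as COL12A1 and unlike that of LAMA5. NPNT, a ligand of the integrin that contains ITGA8, fell with SFN (-0.49 ± 0.106) and with FSH (-0.36 ± 0.106), and neither call held with TMM factors (-0.02 and -0.18). Among matricellular proteins SPP1, the integrin ligand osteopontin, rose with FSH to 15.1 ± 1.17 FPKM, against 1.65 ± 0.171 FPKM in control cells. NOV, a CCN family protein, had 0.443 ± 0.10 FPKM with SFN, 6.84 ± 0.756 FPKM with FSH and 1.56 ± 0.323 FPKM in control cells. EMILIN1, a protein of elastic fibres, fell with SFN (-1.75 ± 0.119), and SMOC1, a relative of SPARC, was lower with SFN than with FSH (-2.12 ± 0.176).

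The cell-surface and pericellular proteoglycans moved both ways. SDC1, a syndecan that acts as a matrix co-receptor, had 39.9 ± 7.14 FPKM with SFN, 169 ± 4.21 FPKM with FSH and 56.1 ± 3.60 FPKM in control cells, and its fall with SFN ended with each other scaling (log2 fold change -0.23 to -0.01 in place of -0.49). VCAN, the large hyaluronan-binding proteoglycan versican, was lower with SFN (-1.01 ± 0.0974) and higher with FSH than in control cells. CSPG4 fell in both comparisons (-1.13 ± 0.177 with SFN and -1.37 ± 0.179 with FSH).

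Of the genes that fold and cross-link collagen, LOXL4, a member of the lysyl oxidase family, had 156 ± 13.7 FPKM with SFN, 365 ± 1.32 FPKM with FSH and 249 ± 16.4 FPKM in control cells. ADAMTS14, a procollagen N-propeptidase, fell with SFN (-0.86 ± 0.116) and FSH (-0.89 ± 0.116). P4HA1 and PLOD1, named after their values were seen, hydroxylate proline and lysine of procollagen and rose with SFN (log2 fold changes 0.59 ± 0.109 and 0.63 ± 0.0726, SE) and with FSH. P4HA3, another prolyl hydroxylase chain of the list, fell with SFN (-0.39 ± 0.113) and rose with FSH (0.55 ± 0.109), and its fall with SFN was not called with any other scaling (-0.14 to 0.085). Among proteases ADAMTS4, an aggrecanase, had 0.190 ± 0.0100 FPKM with SFN, 5.78 ± 0.160 FPKM with FSH and 0.437 ± 0.0907 FPKM in control cells. ADAMTS15 had -1.85 ± 0.132 and ADAM19 -1.78 ± 0.126 as log2 fold changes with SFN. Both passed the filter on low values through the 6 FSH and control libraries alone. ITGA2, the alpha chain of another collagen receptor, whose deposited counts were not all whole, was at 4.57 ± 0.537 FPKM with SFN, 9.63 ± 0.479 FPKM with FSH and 1.82 ± 0.421 FPKM in control cells, so it rose in both comparisons in which ITGA11 fell.

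**Figure D5:**
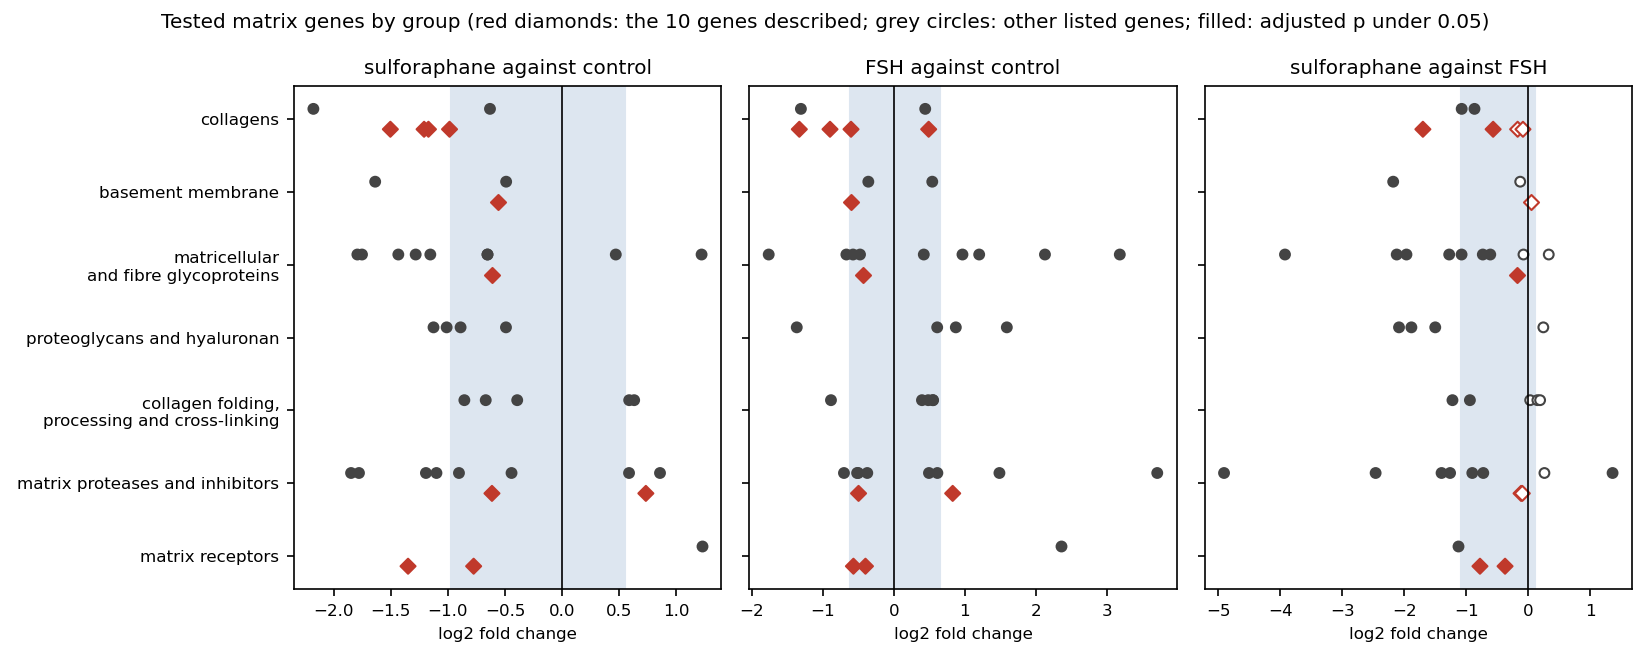
Log2 fold change (horizontal axes) of the tested matrix genes in 7 groups; the shaded band spans the middle quartiles of the 919 tested genes. In SFN against FSH 22 of 31 other matrix genes lie below 0 and passed, with ADAMTS1 as the 1 called above 0. Over the 919 tested genes 42.8% were called lower and 12.9% higher.

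In SFN against FSH 22 of the 31 other genes were lower and 1 was higher (median -1.08), beside 42.8% lower and 12.9% higher over the table (median -0.18). With TMM factors 21 were lower and 7 higher, where the table had 327 lower and 320 higher. The largest differences were those of ADAMTS4 (log2 fold change -4.91 ± 0.171, SE) and NOV (-3.92 ± 0.202). ADAMTS4 passed the filter on low values through the 3 FSH libraries alone, so that it had to differ to be tested, and NOV passed it through the 6 FSH and control libraries. The 1 higher gene was ADAMTS1, named after its value was seen and with deposited counts that were not all whole (log2 fold change 1.36 ± 0.123).

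By Pearson's r of log2(FPKM + 1) over the 9 libraries, which share their groups and are not independent points, the gene most like COL1A1 was FSCN1, an actin-bundling protein (r = 0.997), followed by LMOD1 and PPARGC1B. Among the closest to COL12A1 were PLAT, the tissue plasminogen activator (0.992), and MYOCD, a coactivator of smooth muscle genes (0.990). For MMP16 they were the transcription factors FOXP1 (0.976), ZNF608 and ZNF462. Such values are common in the table: 133 of 909 other genes exceeded r = 0.9 with COL1A1 and 167 with COL12A1. PPARGC1B had a mean above 1 FPKM in control cells only (0.42 FPKM with SFN, 0.677 with FSH and 1.05 in control cells). LMOD1 and MYOCD had means below 1 FPKM with SFN (0.497 and 0.71). The filter on low values favoured genes high in the other groups at such levels, so their likeness is in part set by it.

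In bulk samples fewer cells of a type and less RNA per cell cannot be told apart. The summed levels of cell type markers differed between the groups, and some lists fell relative to control while others rose. Only markers that were rows of the table entered these sums, and the table left out genes with small differences from control. Markers that stayed near control could therefore hardly enter, so a difference in a sum is no measure of cell content. Of 16 granulosa markers 6 were in the table (AMHR2, INHBA, FST, HSD17B1, GJA1 and KITLG), with a summed level of 576 to 716 FPKM with SFN, 779 to 812 FPKM with FSH and 393 to 399 FPKM in control cells. GJA1, a gap junction protein, made up most of this sum (583 FPKM with SFN, 613 FPKM with FSH and 323 FPKM in control cells). The other members did not all follow it: AMHR2, INHBA and HSD17B1 had log2 fold changes of -2.24, -0.66 and -1.03 with SFN against control, and AMHR2 had -1.24 with FSH against control. Of 11 smooth muscle markers 7 were present, with sums of 2512 to 2706 FPKM with SFN, 3287 to 3353 FPKM with FSH and 7592 to 7881 FPKM in control cells. ACTA2, smooth muscle actin, held most of that sum (7303 FPKM in control cells), and CNN1 differed from it with 43.5 FPKM with SFN, 149 FPKM with FSH and 97.3 FPKM in control cells. Of 11 stromal fibroblast markers 3 were present (PDGFRB, THY1 and COL1A1 itself), at 44.3 to 52.0 FPKM with SFN, 56.9 to 60.6 FPKM with FSH and 85.4 to 91.6 FPKM in control cells. PDGFRB alone was at 13.1 ± 2.05, 6.55 ± 0.329 and 9.47 ± 0.650 FPKM with SFN, with FSH and in control cells (SD, n = 3 each), an order unlike that of any of the 10 genes.

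The surface epithelium keratins (3 of 8) summed to 39.4 to 46.5 FPKM with SFN, 89.4 to 95.3 FPKM with FSH and 154 to 157 FPKM in control cells. KRT8 made up most of this sum (40.0 FPKM with SFN, 86.3 FPKM with FSH and 146 FPKM in control cells). The theca and luteal markers (3 of 7) summed to 84.7 to 155 FPKM with SFN, 564 to 655 FPKM with FSH and 159 to 188 FPKM in control cells. CYP11A1 held most of that sum (103 FPKM with SFN, 558 FPKM with FSH and 149 FPKM in control cells). KDR, the 1 endothelial marker of 8 in the table, had 0.87 to 1.67 FPKM with SFN, 0.25 to 0.36 FPKM with FSH and 0.080 to 0.10 FPKM in control cells, without overlap between the groups. The 7 leukocyte and 6 oocyte markers looked for were not rows of the table. As the table left out genes with small differences from control, this does not tell whether the cells expressed them. None of the markers in the table was at 0 in any library, the lowest being SYNPO2 at 0.01 FPKM. The part of other cell types in the fall of the collagens and integrins was not tested.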

How the data were processed

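FPKM and estimated counts per gene and library were deposited by the authors in 1 table, per the file headers. The estimated counts, deposited as read counts, were not whole in 143 of 1081 rows (none of the 10 genes) and were rounded. Without role or order, HISAT2, StringTie 1.3.1, fastp, edgeR, Bowtie2 2.2.8, DESeq2 and the build Sscrofa11.1 appear in the submitters' processing notes. No source used here says how rows were chosen. Of 1053 NCBI gene identifiers 1053 matched the reference gene table of that build, from which coordinates come.

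Because the table holds part of each library, relative depth was recovered as count over FPKM in 354 genes that had in all libraries a count of 100 or more and an FPKM of 5 or more. Absolute depth was set by 10 of 346 genes, those at the shared upper limit of this quotient relative to gene span (tolerance 0.1%). Depths entered as library sizes. All 9 libraries went into 1 fit of 3 group means in edgeR 4.0.16 (R 4.3.3, quasi-likelihood test). The test was also run on simulated counts with known depths and most genes unchanged. The deposited table differs in both respects, so that run could not check the scaling between libraries. P-values were adjusted over 919 genes (Benjamini-Hochberg, threshold 0.05). The biological coefficient of variation was 10.9%. SE was obtained as the absolute log2 fold change over the root of the F statistic.

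Named genes are the 10 genes, and for each other matrix list and comparison the 2 genes past the threshold with the largest absolute log2 fold change. Those given with values are a selection of these. For likeness of pattern, the 3 other tested genes with the highest r to a gene were taken, given here for COL1A1, COL12A1 and MMP16, with 1 gene not reported here. Members and lists were chosen with earlier results of these data known. Alternatives were TMM, median-ratio and column-sum scaling, DESeq2 1.42.0, limma 3.58.1 on log2(FPKM + 1), + 0.1 and + 5, no filter, a mean of at least 5 FPKM, fits of only the compared groups, a replicate block and each library left out.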

Additional observations from a re-analysis of the deposited data

How the results depend on the processing

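Against control the 10 genes kept their direction under every alternative, and the calls lost were those of LAMA5, SPARC and TIMP2 with SFN under TMM factors and of LAMA5 under median-ratio factors. A minimum mean of 5 FPKM removed COL27A1, ITGA8 and MMP16 and by its construction lowered the genes called in the table to 489 (SFN against control), 485 (FSH against control) and 292 (SFN against FSH) of 489 tested. Leaving out 1 library at a time gave 10 calls among the 10 genes in both comparisons with control and 3 to 7 calls in SFN against FSH, with the lowest number without FSH replicate 2. Table-wide calls then ranged over 892 to 915, 857 to 919 and 470 to 593, and those of other matrix genes over 31 to 31, 31 to 31 and 23 to 26, in the same order.

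Reversals occurred in SFN against FSH, and for P4HA3 with SFN against control under TMM factors (0.085). With TMM factors, median-ratio factors and column sums the values were 0.12, 0.19 and 0.012 for COL11A1, 0.22, 0.30 and 0.11 for COL27A1, 0.12, 0.20 and 0.016 for SPARC, 0.18, 0.25 and 0.072 for TIMP2, 0.20, 0.27 and 0.092 for MMP16, and 0.16, 0.24 and 0.058 for NPNT. These factors moved the median of the table in that comparison by 0.29, 0.37 and 0.19. Such factors apply to whole libraries, and each of these genes moved from its main value by nearly the same amount as the median. Over the fits that left out 1 library, COL27A1 ranged from -0.23 to 0.037 (above 0 without SFN replicate 3), LAMA5 from -0.014 (without SFN replicate 1) to 0.074, and ADAMTS14 from -0.053 to 0.098 (below 0 without SFN replicate 1 or FSH replicate 2). The cause of the changes when 1 library was left out was not tested.

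Replicate numbers are shared by the groups, but same-numbered libraries did not deviate together (correlations -0.18 to 0.21 over 9 pairs). With the number as a replicate block the 10 genes had 10, 10 and 5 calls, as without it, and 915, 903 and 505 genes were called over all rows tested. Depth limits the precision of genes with few counts, such as MMP16, with 116 counts in its lowest library, and COL27A1, with 129.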
